A study of Mus musculus with 12 samples.

Results

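The 9 genes described here carry iron into, through and out of the cell: Tfrc, the transferrin receptor, with Slc11a2, Slc25a28, Slc25a37, Fth1, Ftl1, Slc40a1, Ireb2 and Hmox1. They were chosen by gene name for their place in iron handling, with Tfrc and others selected on the values of these same muscle libraries, so their levels and differences below are given as a description and without a test. The table lists 54532 genes, of which 12754 passed a filter on low values (a mean of at least 0.5 FPKM, the fragment count per kilobase of gene after scaling for depth), and all 9 members were among these. RNA was sequenced from the gastrocnemius, a calf muscle, of female ICR SCID mice, a strain that lacks mature B and T cells, and the labels used give no age. Mice of the NTV group were free of tumour and were given vehicle. HT1080 cells, an established line from a human fibrosarcoma, formed tumours under the skin of the TV and TL mice, of which TV were given vehicle and TL the RET kinase inhibitor selpercatinib (30 mg/kg daily, by gavage, over 19 days). Each group had 4 mice, numbered here as in the labels. No group of tumour-free mice given selpercatinib was analysed here, so TL differs from NTV in both tumour and drug. The study asks about this drug in cachexia, the wasting of muscle and fat seen with some cancers.

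Cells take up most of their iron as transferrin bound to the transferrin receptor, release it inside endosomes and pass it to the cytosol through the carrier encoded by Slc11a2. Iron then enters mitochondria through the mitoferrins, is used for haem and iron-sulphur clusters, is stored in ferritin, or leaves through ferroportin. A pair of iron regulatory proteins, of which Ireb2 encodes one, bind hairpins named iron-responsive elements when iron is scarce. Binding in a 5′ UTR blocks translation, as for the ferritins, and binding in the 3′ UTR of the transferrin receptor mRNA slows its decay. Muscle uses iron for myoglobin and for the respiratory chain.

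The hairpins are shown because they are the known binding element of these proteins and lie in members of uptake, storage and export alike. GENCODE vM21 transcripts on GRCm38 (mm10), the build of the files, were searched on the transcript strand for the loop CAGTGN, a C 5 bases before it and 5 paired bases between them, G:T pairs allowed. Of the 9 members 4 held such a match in a UTR, compared with 0.732% of the 21866 coding genes searched. In the lines below the capitals mark the bulged C and the 6-base loop, with the 5 paired bases of the upper stem between and after them in lower case. The 6 outer bases on each side were not part of the search, and 4 to 6 of them can pair.
Fth1, 5′ UTR, chr19:9982732-9982760, plus strand: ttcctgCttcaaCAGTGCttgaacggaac
Ftl1, 5′ UTR, chr7:45459779-45459807, minus strand: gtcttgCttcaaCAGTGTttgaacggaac
Slc40a1, 5′ UTR, chr1:45925465-45925493, minus strand: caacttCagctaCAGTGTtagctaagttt
Tfrc, 3′ UTR, chr16:32631219-32631247, plus strand: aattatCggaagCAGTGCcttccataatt
Tfrc, 3′ UTR, chr16:32631598-32631626, plus strand: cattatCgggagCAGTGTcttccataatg
Tfrc, 3′ UTR, chr16:32631663-32631691, plus strand: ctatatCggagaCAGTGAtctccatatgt
Tfrc, 3′ UTR, chr16:32631710-32631738, plus strand: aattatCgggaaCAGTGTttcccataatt
The 4 Tfrc sites lay within 520 bases of each other, and the ferritin sites share the same 5 bases before the loop. In the 5′ UTR 0.142% of coding genes held a match and in the 3′ UTR 0.59%. The search found none in a UTR of Slc11a2, Ireb2, Hmox1 or the mitoferrins, which says only that these letters were not in the annotated transcripts. Slc11a2 is known to have an mRNA form with a 3′ UTR element that departs from this strict pattern, and no looser search was run, so the count of 4 holds for the strict pattern alone. A match is a description of sequence and not a measurement of binding.

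The libraries held 14939830 to 23580603 reads assigned to genes. The tissue label was borne out by the muscle fibre markers, whose summed level was 42683 to 53538 FPKM in NTV, 39858 to 75726 in TV and 40014 to 45208 in TL. Libraries NTV 5, TL 1 and TL 5 stood apart by Ucp1, a brown fat gene, which passed 2 FPKM there and reached 53.4 FPKM in NTV and 58.3 in TL. TL 1 and TL 5 also had the highest white fat marker sums of TL, 648 and 787 FPKM against 173 in TL 4 and 61.8 in TL 7. Muscle is a mixture of cells, and in bulk RNA fewer cells of a type and less RNA per cell cannot be told apart. Each group enters 2 of the 3 comparisons, so the comparisons share libraries.

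Tfrc (ENSMUSG00000022797, chr16:32608920-32632794, plus strand), which brings transferrin iron into the cell, was the member that differed most. Its level was 58.0, 60.9, 71.3 and 61.3 FPKM in NTV 2, 3, 5 and 6. It was 8.86, 11.7, 14.8 and 9.46 FPKM in TV 3, 4, 6 and 8, and 16.7, 19.5, 15.3 and 21.5 FPKM in TL 1, 4, 5 and 7. Every NTV library lay above every TL library and every TL library above every TV library, the closest pair being 15.3 FPKM in TL 5 and 14.8 in TV 6. The means were 62.9 ± 5.81 FPKM in NTV, 11.2 ± 2.67 in TV and 18.2 ± 2.79 in TL (SD, n = 4). By the means, TV was 5.62-fold lower than NTV, and TL was 1.63-fold higher than TV and 3.45-fold lower than NTV.

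On the scale of log2(FPKM + 0.5), Tfrc differed by -2.46 ± 0.16 (SE) between TV and NTV, by 0.69 ± 0.16 between TL and TV and by -1.77 ± 0.16 between TL and NTV. Counted from the lowest difference, this ranked it 16 of the 12754 genes for TV against NTV and 29 for TL against NTV. Counted from the highest, it ranked 261 for TL against TV. These values rest on 812 to 8910 reads per library, so counting error is small beside the spread between mice. Without the 3 libraries that held Ucp1, the difference of TL from NTV was -1.53. Markers of dividing cells, which need much transferrin iron, were also highest in NTV: the summed level of the 6 markers was 0.780 to 1.80 FPKM in NTV, 0.194 to 0.442 in TV and 0.220 to 0.496 in TL. TV and TL overlapped in these sums, and within TL the libraries with more Tfrc had the lower sums. None of the 6 passed the filter. Ccnb1 was at 0 in 7 libraries, Cdk1 in 4, Mki67 and Birc5 in 3 and Top2a in 2. Rrm2 had the highest level of the 6, with means of 0.693, 0.194 and 0.296 FPKM in NTV, TV and TL. Erythroid markers, of which Slc4a1 and Epb42 stayed under 0.1 FPKM in every library, summed to 233 to 347 FPKM in NTV, 122 to 353 in TV and 163 to 244 in TL, mostly haemoglobin. The part of dividing or erythroid cells in the Tfrc difference was not tested.

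**Figure D1:**
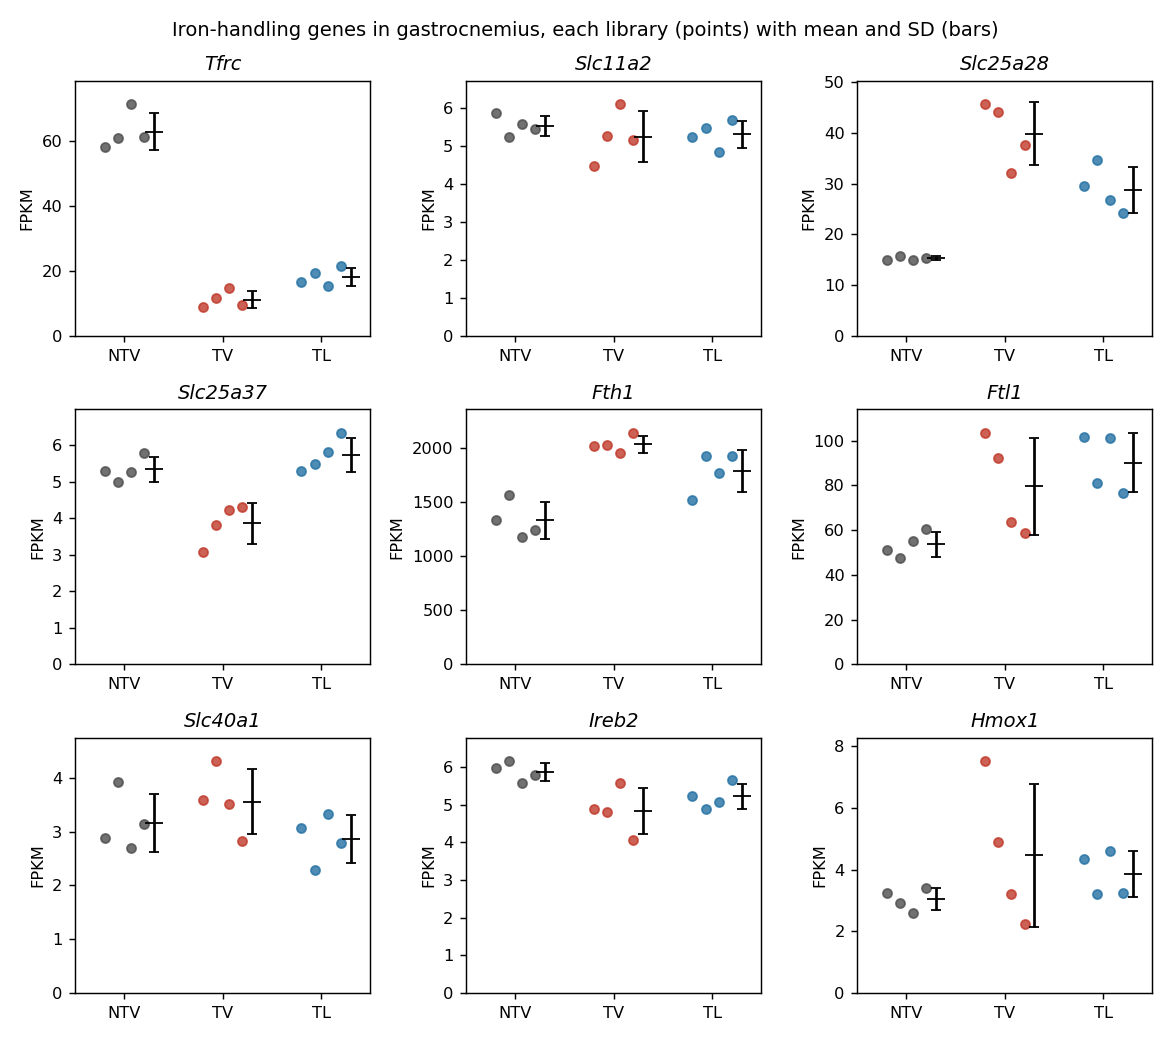
Level of each of the 9 genes in FPKM (vertical axis, from 0) in the 4 libraries (points) of NTV, TV and TL, with the mean and SD beside them (bars). The 3 groups are separate for Tfrc, at 58.0 to 71.3, 8.86 to 14.8 and 15.3 to 21.5 FPKM, while Slc11a2 lies between 4.47 and 6.09 in all 12 libraries.

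Slc11a2 (ENSMUSG00000023030, chr15:100387898-100425072, minus strand), which moves iron out of the endosome after the transferrin receptor has delivered it, overlapped between all groups. It was 5.24 to 5.86 FPKM in NTV with a median of 5.50, 4.47 to 6.09 in TV with a median of 5.20, and 4.84 to 5.68 in TL with a median of 5.34. Its log2 differences were -0.07, 0.02 and -0.06 with an SE of 0.09, and the last 2 took the other sign under 2 alternatives each. The receptor and the endosomal carrier thus had unlike levels across the groups.

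The mitoferrins, which carry iron into mitochondria, differed in opposite directions between TV and NTV. Slc25a28 (mitoferrin 2, ENSMUSG00000040414, chr19:43663822-43674881, minus strand) was 15.1, 15.8, 14.9 and 15.3 FPKM in NTV 2, 3, 5 and 6. It was 45.6, 44.1, 32.1 and 37.6 FPKM in TV 3, 4, 6 and 8, and 29.5, 34.7, 26.8 and 24.2 in TL 1, 4, 5 and 7. NTV lay below both tumour groups in every library, and TV and TL overlapped through TV 6 and TL 4. The means were 15.3 ± 0.398, 39.8 ± 6.23 and 28.8 ± 4.50 FPKM, so that TV was 2.61-fold and TL 1.89-fold above NTV. The log2 differences were 1.34 ± 0.13 for TV against NTV, -0.46 ± 0.13 for TL against TV and 0.88 ± 0.13 for TL against NTV.

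Slc25a37 (mitoferrin 1, ENSMUSG00000034248, chr14:69241848-69285112, minus strand), the form known for supplying red cell precursors, was lowest in TV. It was 5.30, 4.99, 5.26 and 5.79 FPKM in NTV 2, 3, 5 and 6, then 3.09, 3.82, 4.23 and 4.32 in TV 3, 4, 6 and 8, and 5.29, 5.49, 5.80 and 6.34 in TL 1, 4, 5 and 7. All TV libraries lay below all others, and NTV and TL overlapped. The means were 5.34 ± 0.332, 3.86 ± 0.562 and 5.73 ± 0.460 FPKM. The log2 differences were -0.43 ± 0.10, 0.52 ± 0.10 and 0.09 ± 0.10 in the same order of comparisons.

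Per length, mitoferrin 2 was the more abundant in every library, and the balance between the pair separated all 3 groups. The ratio of Slc25a28 to Slc25a37 was 2.65 to 3.16 in NTV, 7.59 to 14.8 in TV and 3.82 to 6.32 in TL. The mean share of reads from the mitochondrial genome was lowest in TV, where this ratio was highest and Slc25a37 lowest. The share was 11.6 to 13.5% in NTV, 5.08 to 7.70% in TV and 6.04 to 13.9% in TL. Its part in the mitoferrin differences was not tested.

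**Figure D2:**
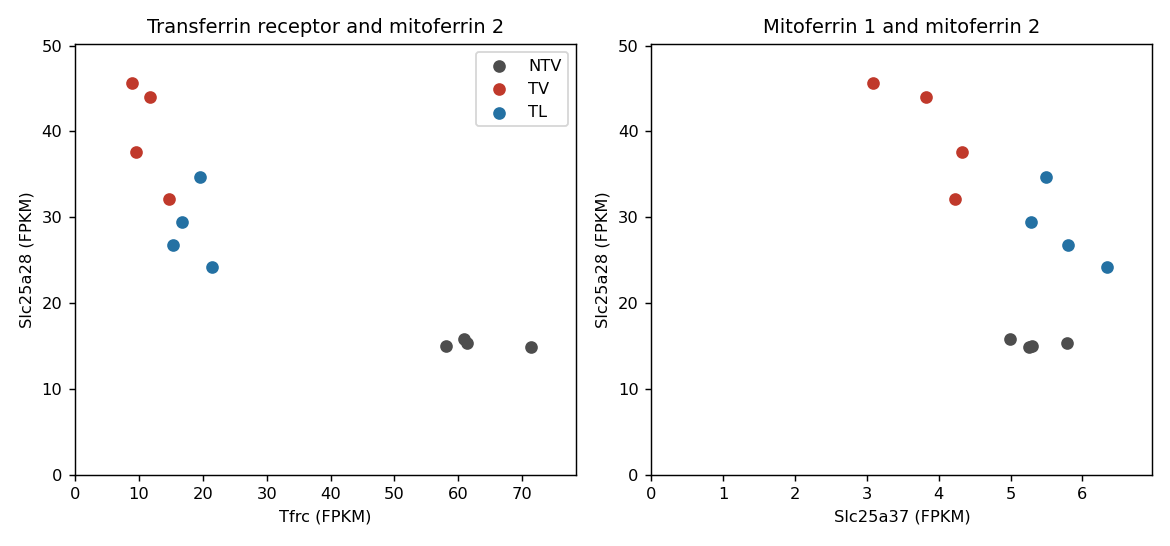
Slc25a28 (mitoferrin 2, FPKM, vertical axis) against Tfrc (left) and Slc25a37 (mitoferrin 1, right), both in FPKM, 1 point per library, coloured by group. NTV sits at 14.9 to 15.8 FPKM of Slc25a28 with Tfrc at 58.0 or more. TV and TL lie apart from NTV, and from each other by Tfrc and by Slc25a37.

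Ferritin, the storage shell made of heavy (Fth1) and light (Ftl1) chains, was higher in TV than in NTV for the heavy chain. Fth1 (ENSMUSG00000024661, chr19:9982703-9985092, plus strand) was 1338, 1566, 1182 and 1245 FPKM in NTV 2, 3, 5 and 6. It was 2021, 2032, 1955 and 2143 in TV 3, 4, 6 and 8, and 1522, 1928, 1771 and 1929 in TL 1, 4, 5 and 7. TV lay above all other libraries, and NTV and TL overlapped through NTV 3 and TL 1. The means were 1333 ± 168, 2037 ± 78.1 and 1787 ± 192 FPKM, and the log2 differences 0.62 ± 0.14 for TV against NTV and 0.43 ± 0.14 for TL against NTV. TL against TV gave -0.19 ± 0.14, and 0.034, the reverse sign, with quantile normalization.

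Ftl1 (ENSMUSG00000050708, chr7:45457944-45459884, minus strand) was 51.1, 47.7, 55.2 and 60.7 FPKM in NTV 2, 3, 5 and 6. It was 104, 92.2, 63.6 and 58.9 in TV 3, 4, 6 and 8, and 102, 81.1, 101 and 76.4 in TL 1, 4, 5 and 7. TL lay above all NTV libraries, while TV spanned from within the NTV range to above TL. The means were 53.6 ± 5.62, 79.6 ± 21.7 and 90.1 ± 13.3 FPKM, with log2 differences of 0.53 ± 0.18, 0.21 ± 0.18 and 0.74 ± 0.18. TL 1 and TL 5, which had the high fat marker sums, were the highest for Ftl1 in TL, and the part of fat tissue was not tested. The ratio of Fth1 to Ftl1 overlapped between all groups, at 20.5 to 32.9 in NTV, 19.5 to 36.4 in TV and 15.0 to 25.2 in TL. Copies of the ferritin genes can share reads with them. The largest, Ftl1-ps1, averaged 1.11 FPKM, a level that does not measure how many reads fit both genes.

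Fth1 and Tfrc differed in opposite directions between each tumour group and NTV. Per length, Fth1 was 16.6 to 25.7 times the level of Tfrc in NTV, 132 to 228 times in TV and 89.8 to 116 times in TL, with no overlap between the groups.

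Slc40a1 (ferroportin, ENSMUSG00000025993, chr1:45908068-45926523, minus strand), the exporter, overlapped in all comparisons. It was 2.70 to 3.93 FPKM in NTV, 2.82 to 4.31 in TV and 2.28 to 3.33 in TL, with means of 3.16 ± 0.544, 3.56 ± 0.609 and 2.87 ± 0.448. Its log2 differences were 0.15, -0.27 and -0.12 with an SE of 0.14, and without the Ucp1 libraries that of TL from NTV was -0.32.

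Ireb2 (iron regulatory protein 2, ENSMUSG00000032293, chr9:54863789-54912530, plus strand), which senses low iron, was a little lower in TV. It was 5.96, 6.15, 5.58 and 5.79 FPKM in NTV 2, 3, 5 and 6, then 4.87, 4.79, 5.57 and 4.07 in TV 3, 4, 6 and 8, and 5.23, 4.89, 5.08 and 5.66 in TL 1, 4, 5 and 7. NTV and TV were separated only by 5.58 in NTV 5 against 5.57 in TV 6, and TL overlapped both. The log2 differences were -0.27 ± 0.09, 0.11 ± 0.09 and -0.16 ± 0.09. Iron regulatory protein 2 is controlled largely through its breakdown, which mRNA levels do not measure.

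Hmox1 (haem oxygenase 1, ENSMUSG00000005413, chr8:75093621-75100589, plus strand), which frees iron from haem, varied most within a group. It was 3.25, 2.93, 2.60 and 3.39 FPKM in NTV 2, 3, 5 and 6, then 7.52, 4.89, 3.21 and 2.22 in TV 3, 4, 6 and 8, and 4.36, 3.21, 4.62 and 3.25 in TL 1, 4, 5 and 7. TV held both the highest and the lowest of the 12 values, and the coefficient of variation was 52.0% in TV, 11.6% in NTV and 19.0% in TL. The log2 differences were 0.37, -0.08 and 0.29 with an SE of 0.27, and that of TL from TV was 0.19 without TV 3. TV 3 and TV 4 were the highest of their group for Hmox1, Ftl1 and Slc25a28 alike.

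Counted over the 9 members, 2 were higher in TV than in NTV with no overlap (Slc25a28 and Fth1) and 3 lower (Tfrc, Slc25a37 and Ireb2), where 14.4% of all genes tested were higher and 12.7% lower in that way. TL against TV separated Tfrc and Slc25a37 upwards and Fth1 downwards, against 3.36% and 4.05% of all genes. TL against NTV separated Slc25a28 and Ftl1 upwards and Tfrc downwards, against 10.8% and 10.1%. Without TV 6 the groups of 5 members in place of 3 did not overlap between TL and TV, while the share of all genes in either direction went from 7.42% to 13.7%. Without the Ucp1 libraries 6 in place of 3 did not overlap between TL and NTV, while the share of all genes went from 20.8% to 47.9%. The median log2 difference of the members was 0.15, 0.02 and 0.09, and that of all genes tested was 0.02, -0.003 and 0.02. Since the members were chosen with these values known, the counts are given as a description only.

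**Figure D3:**
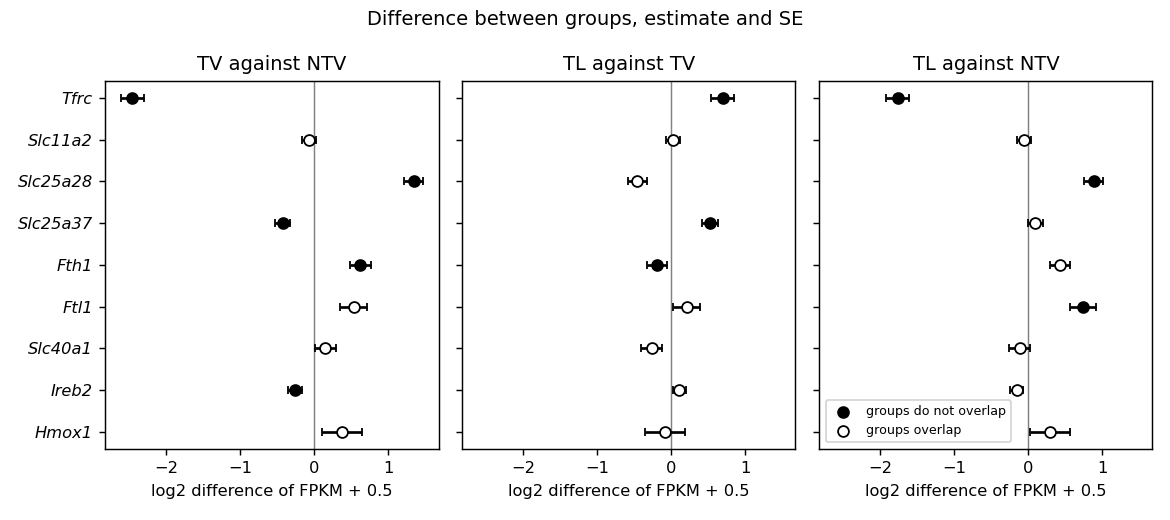
Difference of log2(FPKM + 0.5) between groups (horizontal axis, points, with SE bars) for the 9 genes in the 3 comparisons; filled points mark groups that do not overlap. Tfrc is filled in all 3, at -2.46, 0.69 and -1.77, and the other genes lie between -0.46 and 1.34.

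The wider iron pathway was read from 107 other genes in 8 lists, all 107 found in the table and 87 of them tested. In TV against NTV 7 rose and 16 fell (limma on all genes, Benjamini-Hochberg adjusted p under 0.05), and 64 did not pass. Over all genes tested 13.8% rose and 11.5% fell, the shares to set beside the count of each list below for this comparison. Scaling every library to an equal total gave 5 that rose and 28 that fell. Over all genes the same scaling moved the calls from 1755 to 972 higher and from 1462 to 2094 lower. Leaving out NTV 6 or TV 3 left 14 and 15 called, while calls over all genes went from 3217 to 2240 and 2223. The median log2 difference of the lists was -0.09, beside 0.02 for all genes.

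Of the transferrin cycle and iron import list, 2 of 10 tested genes fell and none rose in TV against NTV, with 8 not called. Steap3, the endosomal ferrireductase that acts between the receptor and Slc11a2, went from 6.26 ± 0.421 to 3.33 ± 1.11 FPKM (log2 difference -0.86 ± 0.22, limma adjusted p = 0.0158). Every NTV library of Steap3, 5.76 to 6.78 FPKM, lay above every TV library, 2.32 to 4.48. Without the Ucp1 libraries its adjusted p in limma was 0.0515. Hfe, a partner of the transferrin receptor, fell by 0.45 ± 0.14 (adjusted p = 0.0366), a call lost without NTV 2, 5 or 6 or TV 3, 4 or 6, with an adjusted p up to 0.101.

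Iron storage turnover and export gave 1 rise and 1 fall of 4 tested in the same comparison. Lcn2, which encodes the siderophore-binding lipocalin 2, rose from 0.279 ± 0.197 to 3.77 ± 3.40 FPKM (log2 difference 2.14 ± 0.51, limma adjusted p = 0.0115), with 8.62 FPKM in TV 3 and 0.729 in TV 6. Ncoa4, the receptor that delivers ferritin for breakdown, fell by 0.32 ± 0.10 (limma adjusted p = 0.0358). The Ncoa4 call was lost without NTV 3, 5 or 6, without any 1 of the TV libraries and without the Ucp1 libraries, with an adjusted p up to 0.0868.

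Of the iron sensing and hepcidin list, 1 of 8 tested genes rose and none fell. This was Neo1, a receptor that takes part in hepcidin control, at 0.41 ± 0.13 (limma adjusted p = 0.0348). The call was lost without NTV 2, 5 or 6 or TV 4, 6 or 8, with an adjusted p up to 0.0942, and under each of the 3 other scalings. Named after their values were seen, Aco1, which encodes iron regulatory protein 1, gave -0.24 ± 0.18 (adjusted p = 0.352 in limma) and Fbxl5, which marks iron regulatory protein 2 for breakdown, gave -0.04 ± 0.10 (adjusted p = 0.803). Hjv, a muscle-rich hemojuvelin transcript, averaged 281 FPKM in NTV and 245 in TV (adjusted p = 0.320).

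In haem synthesis 4 of 11 tested genes fell in TV against NTV and none rose, with a median of -0.30. Alas1, the first and rate-limiting enzyme outside red cells, went from 24.9 ± 1.34 to 14.2 ± 1.75 FPKM (log2 difference -0.80 ± 0.14, limma adjusted p = 0.0034), and no TV library reached the lowest NTV value of 23.7. Tmem14c, a mitochondrial carrier of haem precursors, fell by 0.57 ± 0.15 (adjusted p = 0.0178 in limma), with 0.0501 without TV 3. Abcb10, which supports mitoferrin 1 in the inner membrane, fell by 0.43 ± 0.09 (adjusted p = 0.00634 in limma). The fourth gene was Cpox, whose call was lost without any 1 of the NTV libraries, without TV 3, 4 or 8, without TL 1 or 5 and without the Ucp1 libraries, with an adjusted p up to 0.110 in limma.

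Haem breakdown, transport and scavenging gave 1 rise and 1 fall of 12 tested. Mb, the oxygen-storing haem protein of muscle, was 2048, 2437, 1927 and 1777 FPKM in NTV and 582, 645, 600 and 845 in TV, and 1408, 319, 1556 and 805 in TL 1, 4, 5 and 7. TV fell below NTV by 1.62 ± 0.40 on the log2 scale (limma adjusted p = 0.0134), while TL reached from below the TV values to above them and stayed below every NTV library, its highest in TL 1 and TL 5. TL against NTV gave -1.23 ± 0.40 (adjusted p = 0.0752 in limma). Hp, the haemoglobin-binding plasma protein haptoglobin that fat tissue also makes, rose by 2.65 ± 0.74 (adjusted p = 0.0221 in limma). In NTV 5 Hp stood at 13.3 FPKM against 1.28 to 1.45 in the other NTV libraries, and the call was lost without NTV 2, 3 or 6 or TV 3 or 4, with an adjusted p up to 0.0635. White fat marker sums were 45.2 to 186 FPKM in NTV and 116 to 625 in TV, and none of the 6 markers was called. The part of fat tissue in the Hp rise was not tested.

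In mitochondrial iron-sulphur cluster assembly, the list with the most tested genes, 6 of 19 fell in TV against NTV and none rose, with a median of -0.32. Isca2, a late assembly factor, went from 17.2 ± 1.79 to 11.8 ± 0.678 FPKM (log2 difference -0.52 ± 0.09, limma adjusted p = 0.00274). Fdx1, a ferredoxin, fell by 0.70 ± 0.18 (adjusted p = 0.0148 in limma), and Glrx5, Abcb8 and Cisd1 were also among those that fell. The call of Abcb8 was lost without NTV 6 or TV 3 and that of Cisd1 without NTV 6, with adjusted p up to 0.0553 in limma. The share of mitochondrial reads was also lower in TV, as given with the mitoferrins, and its part in these falls was not tested. In cytosolic iron-sulphur assembly 2 of 12 fell and none rose, where 11.5% of all genes fell. Ciao3 fell by 0.47 ± 0.10 (limma adjusted p = 0.00624) and Nubp1 by 0.37 ± 0.12 (limma adjusted p = 0.0379), the latter call lost without NTV 3, 5 or 6, TV 3, 4 or 6 or TL 1 or 7, with an adjusted p up to 0.101.

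Of 11 tested regulators known from other cells to act on the members' transcripts, 4 rose in TV against NTV and none fell. Nfe2l2 (NRF2), an activator of ferritin and Hmox1 genes, was 9.13, 13.6, 12.2 and 11.8 FPKM in NTV. It was 54.2, 29.5, 17.3 and 44.2 in TV 3, 4, 6 and 8, and 15.9, 18.2, 12.1 and 17.3 in TL. TV rose by 1.49 ± 0.29 on the log2 scale (limma adjusted p = 0.00459) with no overlap. Bach1, a repressor of the same genes, rose by 1.34 ± 0.25 (adjusted p = 0.00372 in limma), from 4.98 ± 0.603 to 14.2 ± 6.41 FPKM. Keap1, which restrains NRF2, also rose, by 0.60 ± 0.11 (limma adjusted p = 0.00349), so that the activator, its inhibitor and the repressor moved in the same direction. Myc, an activator of Tfrc in dividing cells, rose by 1.48 ± 0.46 (adjusted p = 0.0349 in limma) while Tfrc was lower. Its call was lost without any 1 of the NTV libraries, without TV 3 or 8 and without the Ucp1 libraries, with an adjusted p up to 0.0910.

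**Figure D4:**
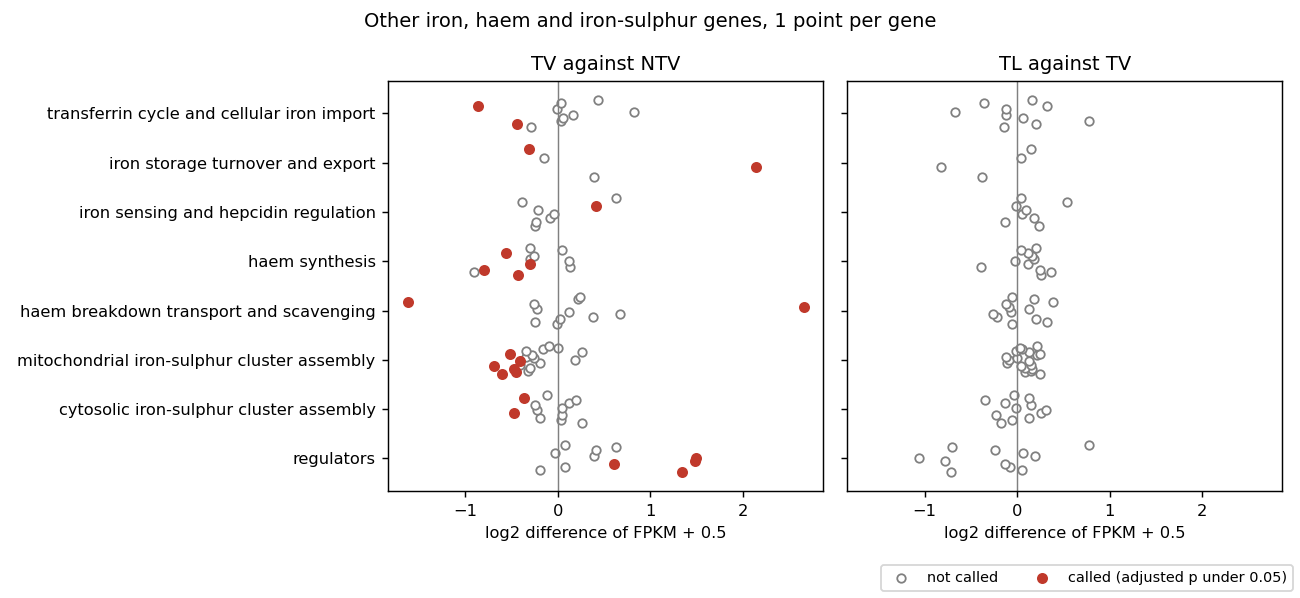
Difference of log2(FPKM + 0.5) (horizontal axis) for each of the 87 tested iron, haem and iron-sulphur genes (points), by list (vertical axis), for TV against NTV and TL against TV. Filled points passed the test: 23 in TV against NTV and 0 in TL against TV. In TV against NTV those of haem synthesis and mitochondrial iron-sulphur assembly lie below 0 and those of the regulators above it.

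Selpercatinib treatment gave no call in these lists: in TL against TV 0 of 87 genes rose and 0 fell in limma, where 0.235% of all genes rose and 0.282% fell. At an unadjusted p under 0.05 there were 6 higher and 4 lower. Zfp36l1, an RNA-binding protein that shortens the life of AU-rich mRNAs, had the smallest adjusted p. It was 5.21 to 8.19 FPKM in TV and 9.37 to 13.2 in TL (log2 difference 0.78 ± 0.17, limma adjusted p = 0.0700). With limma-voom on recovered reads it was called (0.84 ± 0.17, adjusted p = 0.0484), the 1 call by that tool, and also under equal totals, with library weights, without TL 4 and without TV 6. Nfe2l2 gave -1.06 ± 0.29 (adjusted p = 0.124 in limma), and without TV 6 it gave -1.37 (adjusted p = 0.0257).

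In TL against NTV 2 of the 87 genes rose and 2 fell, where 4.19% of all genes rose and 4.62% fell. Zfp36l1 rose by 0.86 ± 0.17 (limma adjusted p = 0.0112) and Keap1 by 0.47 ± 0.11 (limma adjusted p = 0.0227). Alas1 fell by 0.55 ± 0.14 (limma adjusted p = 0.0360) and Fdx1 by 0.65 ± 0.18 (limma adjusted p = 0.0406). The Alas1 and Fdx1 calls were each lost without any 1 of the NTV libraries or without TL 4 or 7, with an adjusted p up to 0.0986. The Keap1 call was lost without NTV 2, 5 or 6 or TL 4 or 7, up to 0.0662. Called genes numbered 1 to 7 when 1 library was left out, the lowest without NTV 6 or TL 4, and 7 without TL 5. They numbered 10 without TL 1 and TL 5 together. Calls over all genes went from 1123 to 563 without NTV 6, 514 without TL 4, 1160 without TL 5 and 1255 without TL 1 and TL 5. Nfe2l2 and Bach1, which rose in TV against NTV, gave 0.43 ± 0.29 and 0.63 ± 0.25 here (adjusted p = 0.360 and 0.124 in limma).

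Among 9658 coding genes with a mean of at least 1 FPKM, the 9 members left out, the patterns most like that of Tfrc over the 12 libraries were those of Chordc1 (Pearson r = 0.96), Ube2n (0.95), Prelid3b (0.95), Vash1 (0.95) and Heatr5a (0.94). The most opposite were those of Ypel3 (-0.98), Flot1 (-0.96) and Ptp4a3 (-0.96). The r compares log2(FPKM + 0.5) over libraries that fall into separate groups, so it mostly reflects group levels, and no test is attached. Vash1, an angiogenesis inhibitor made by endothelial cells, was 2.28 ± 0.299 FPKM in NTV, 0.587 ± 0.221 in TV and 0.810 ± 0.204 in TL. Ypel3 was 25.8 ± 1.83, 59.2 ± 3.66 and 45.8 ± 4.12 FPKM, also with TL between NTV and TV. Endothelial markers were 74.5 to 96.2 FPKM in sum in NTV, 54.3 to 68.1 in TV and 43.4 to 60.5 in TL. Of the 6 endothelial markers Cdh5 and Kdr fell in TV against NTV, where 11.5% of all genes tested fell. In TL against NTV 3 fell, where the share was 4.62%. Pecam1, Tek, Tie1 and Cldn5 were not called in TV against NTV, at -0.04, -0.15, -0.32 and -0.20. Of the other members, Slc25a28 had an r with Tfrc of -0.96, Fth1 -0.89, Ireb2 0.79, Ftl1 -0.71 and Slc25a37 0.56. The weakest were Hmox1 at -0.47, Slc11a2 at 0.45 and Slc40a1 at -0.19.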

How the data were processed

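Poly(A) RNA libraries, primed with random hexamers per the labels' protocols, came from the gastrocnemius of 12 mice, 4 per group. Values are FPKM that the authors deposited as 1 table with gene lengths. Per the submitters' processing notes, the tools were featureCounts 1.5.0-p3, HISAT2 2.05 and DESeq2 with the build mm10, their roles not given, and counting by strand is not given in the sources used here. Multiplied by length, 100% of the FPKM of each library were whole multiples of 1 read's worth (tolerance 0.1 read), so reads were recovered. The steps matched median-of-ratios size factors within 3.92e-12, a scaling that assumes most genes do not differ. All 18 within-group pairs of libraries differed by more than counting error.

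Differences were fitted with limma 3.58.1 (R 4.3.3) on log2(FPKM + 0.5), all 12 libraries, 1 mean per group, a trended prior variance and p-values adjusted by Benjamini-Hochberg over 12754 genes, called at an adjusted p under 0.05. Fold changes on this scale understate those of low genes. The fit was tested on simulated data with known changes. In the lists, up to 3 called genes per list and comparison were named, those with the largest change, and the 5 and 3 coding genes with the highest and lowest correlation with Tfrc. Exceptions are stated, and a few items are not reported here. The members and lists were chosen with earlier results of these data known. Hairpins were searched in UTRs of the reference transcripts with Python 3.11.15. The 26 alternatives covered pseudocounts of 0.1 and 1, filters, scaling, the model and left-out libraries.

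Overlapping genes and ferritin copies could share reads with the members, and the genes overlapping a member stayed at or under 0.346 FPKM. Marker lists covered muscle fibre, erythroid, macrophage, endothelial, white and brown adipocyte, fibro-adipogenic and tendon, satellite and cycling cells, 57 of 58 genes found.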

Additional observations from a re-analysis of the deposited data

Results flagged for a closer look

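Over 87 groups of 4 libraries, 3 values stood farther from the rest of their group than Dixon's limit allows, and chance alone gives about 1 group in 20. Abcb10 was 7.46 FPKM in TL 5, against 6.51 to 6.61 in the other TL libraries. Hp was 13.3 FPKM in NTV 5, against 1.28 to 1.45 in the other NTV libraries, and NTV 5 also held Ucp1. Zfp36l1 was 8.19 FPKM in TV 6, against 5.21 to 5.69 in the other TV libraries.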

How the results depend on the processing

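Of 702 values of the members under the 26 alternatives, 8 took the other sign, 7 of them in Slc11a2 and Hmox1 where the groups overlap. The eighth was Fth1 in TL against TV, at 0.034 with quantile normalization. A further 3 moved by more than the residual SD of the gene. Without libraries with Ucp1 above 2 FPKM, the Tfrc difference of TL from NTV was -1.53. There 6 members had groups that do not overlap (beside 47.9% of all genes). In that comparison 8 list genes were called, while calls over all genes went from 1123 to 712. The count of 3 members in TL against NTV was 5 under equal totals that left out mitochondrial and top genes, beside 21.2% of all genes. It was 5 under quantile normalization, beside 21.8%, where the main share was 20.8%. In TL against TV the count ranged from 3 to 5 when 1 library was left out, beside 9.0 to 16.7% of all genes. It was 2 under each of the 3 other scalings, beside 6.86 to 9.95%, where the main share was 7.42%. Leaving out 1 library at a time gave 14 to 26 list genes called for TV against NTV (23 with all), 0 to 2 for TL against TV (0 with all) and 1 to 7 for TL against NTV (4 with all). The same ranges for calls over all genes were 2223 to 3443 (3217 with all), 7 to 282 (66 with all) and 514 to 1289 (1123 with all). For TL against TV, equal totals, library weights and voom each called 1, beside 131, 232 and 75 over all genes. For TL against NTV, 2 were called with no filter on low values, 7 with only the 2 groups compared and 10 without TL 1 and 5. Over all genes these settings called 742, 1295 and 1255. Of 702 values of the 27 list gene calls, 610 stayed called, 92 did not and 0 reversed.

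Replicate numbers are shared by few libraries. The correlations of same-numbered libraries were 0.01 to 0.13, and those of other pairs between groups -0.23 to 0.24. So few pairs cannot show whether the numbers pair mice, and the libraries were treated as unpaired. With the replicate block, 26 list genes were called in TV against NTV, 0 in TL against TV and 4 in TL against NTV. Over all genes it called 3383, 72 and 1167. Equal totals moved the median of all genes in TL against TV from -0.003 to 0.11. The share of calls that were higher went from 54.6% to 31.7% in TV against NTV under equal totals, and to 35.4% without mitochondrial and top genes. In TL against TV it went from 45.5% to 85.5% and 65.1%. Depth limits Hmox1 most among the members, with 54 to 321 reads.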

Other observations

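Outside the members, 28 genes held the same hairpin letters in a 5′ UTR and 128 in a 3′ UTR, of which 20 and 85 were tested. In TV against NTV 1 of the 20 rose and 1 fell, and 10 of the 85 rose and 9 fell (limma, adjusted over all genes). Of all genes tested 13.8% rose and 11.5% fell there. In TL against TV none of either set was called, beside 0.235% of all genes that rose and 0.282% that fell. In TL against NTV 1 of the 20 rose and none fell, and 3 of the 85 rose and 4 fell. The shares of all genes were 4.19% and 4.62% there.

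Of 6 markers of fibro-adipogenic and tendon cells 4 fell in TV against NTV, where 11.5% of all genes tested fell. Among the 4 were Tnmd, a tendon gene, by 3.10 on the log2 scale (limma adjusted p = 0.00134) and Lum, a collagen-binding proteoglycan, by 1.25 (limma adjusted p = 0.00569). Pdgfra and Dcn were not called, at -0.16 and -0.21 (adjusted p = 0.470 and 0.499 in limma). The summed level was 86.6 to 117 FPKM in NTV, 46.0 to 71.2 in TV and 35.9 to 79.3 in TL. Macrophage markers summed to 9.34 to 25.7 FPKM in NTV, 11.3 to 23.5 in TV and 10.4 to 18.1 in TL, with none of 7 tested genes called. Satellite cell markers summed to 1.95 to 2.80, 1.63 to 2.53 and 2.26 to 3.39 FPKM, with no gene called. Brown adipocyte markers summed to 499 to 616, 444 to 915 and 401 to 673 FPKM, also with no gene called. Most of the brown adipocyte sum was Cox8b, with means of 542, 615 and 488 FPKM in NTV, TV and TL. Of the libraries with Ucp1, NTV 5 had the lowest such sum of NTV, while TL 1 and TL 5 had the highest of TL.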
